A study of Mus musculus with 8 samples.

Results

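The 7 genes described here encode enzymes of the mevalonate and cholesterol synthesis pathway: Hmgcs1, Pmvk, Fdps, Fdft1, Sqle, Lss and Cyp51. They were taken by symbol from 2 deposited tables of ribosome footprints, and all 7 were found, each as 1 row, among 48315 symbols. The tissue was dorsal root ganglion (DRG), where somatosensory neurons have their cell bodies, wrapped by satellite glia and with axons ensheathed by Schwann cells. The mice were wild type, of the strain given as SW, and all had received saline; 4 libraries were labelled female and 4 male. The ages of the mice are not given in the labels, and nothing there says that each library came from its own animal, so p-values measure the spread between these libraries, which may be technical. Footprints of 28 to 34 nt were selected from ribosome-bound RNA. Matched libraries of RNA abundance were not used here, so a footprint level cannot be split into RNA abundance and translation.

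The mevalonate pathway builds isoprenoid units from acetyl-CoA in the cytosol and at the endoplasmic reticulum. Its intermediate farnesyl pyrophosphate is the branch point: it goes to squalene and then to sterols, or to protein prenylation, dolichol and ubiquinone. When membrane sterol is low, SREBP transcription factors are released by proteolysis and raise the genes of the whole pathway through sterol regulatory elements in their promoters. In peripheral nerve, Schwann cells make most of the cholesterol of myelin themselves, since lipoprotein cholesterol enters the nerve poorly.

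CPM below are reads per 1000000 reads assigned to genes in a library, and depth lay between 3697691 assigned reads in male 1 and 12714550 in male 3. Libraries are named by labelled sex and number. The summed level of 4 Y-linked genes was 121 and 138 CPM in female 1 and female 3 and 2.70 CPM in male 1, against 0.277 to 0.351 CPM in the other libraries labelled female and 92.5 to 125 CPM in the other libraries labelled male. Xist, the RNA of the inactive X, was at 10.6 CPM in male 1 and at most 0.175 CPM in female 1 and female 3. These 3 libraries thus carried sex-linked genes of the other sex, and every difference below is one between labels. All 10 neuron markers and all 10 markers of myelinating Schwann cells were measured, with Nefl, a neurofilament subunit, at a mean of 4829 CPM. Markers of other tissues, such as skeletal muscle, were measured too, so this is no test of the tissue label. In bulk tissue, fewer cells of a type and less RNA per cell cannot be told apart.

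Sequence of the upstream region was available for 4 of the 7 genes in the RefSeq table on GRCm38.p6 (Hmgcs1, Pmvk, Lss and Cyp51). The 250 bases before the annotated start were searched on both strands for the letters TCACNCCAC, a form of the sterol regulatory element, for CCAAT, the letters of the NF-Y box, and for GGGCGG, the letters of the GC box bound by SP family factors; none of the motifs shares letters with another in the matches found. The upstream region of Hmgcs1 held all of them. Pmvk, the gene with the largest difference between labels below, has 2 annotated starts in the table: the region of the first held CCAAT alone, and that of the second, chr3:89459321-89459570, held none of the 3 motifs. The regions of Hmgcs1 and of the first start of Pmvk are printed 5′ to 3′ on the gene's strand, with matches on either strand in capitals.
Hmgcs1, chr13:119690101-119690350, plus strand: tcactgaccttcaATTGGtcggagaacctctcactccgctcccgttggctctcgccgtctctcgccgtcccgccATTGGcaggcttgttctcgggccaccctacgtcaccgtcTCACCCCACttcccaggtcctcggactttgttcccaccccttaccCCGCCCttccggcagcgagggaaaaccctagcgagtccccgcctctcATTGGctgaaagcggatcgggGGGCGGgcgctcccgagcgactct
Pmvk, chr3:89454291-89454540, plus strand: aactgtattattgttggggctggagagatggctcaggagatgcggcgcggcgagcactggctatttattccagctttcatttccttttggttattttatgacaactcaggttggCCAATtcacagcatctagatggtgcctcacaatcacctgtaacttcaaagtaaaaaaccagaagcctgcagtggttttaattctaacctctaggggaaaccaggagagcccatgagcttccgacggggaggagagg
In Hmgcs1 the sterol element began 137 bases before the start, CCAAT was matched at 3 places and GGGCGG at 2. Among all 32851 promoters of the table, 1.05% held TCACNCCAC, 33.8% CCAAT and 32.7% GGGCGG in the same window. Lss and Cyp51 each had 1 match of CCAAT, with 2 matches of GGGCGG in Lss and 1 in Cyp51, and neither had TCACNCCAC. TCACNCCAC was in 0 of the 13 other pathway enzymes that the table covers. A match is a description of the letters, and the absence of one says nothing about binding.

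Footprint levels per coding length were compared first, because counts of reads also follow gene length. Hmgcs1, the cytosolic HMG-CoA synthase that commits acetyl units to the pathway, had the highest level, at 661 ± 145 CPM per kilobase of coding length (SD, n = 8). Fdft1, squalene synthase, followed at 221 ± 26.7, then Cyp51, the lanosterol demethylase, at 158 ± 12.2 and Sqle, squalene epoxidase, at 152 ± 19.4 CPM per kilobase. Fdps, farnesyl pyrophosphate synthase, was at 78.6 ± 13.1 and Pmvk, phosphomevalonate kinase, at 65.1 ± 19.4 CPM per kilobase. Lss, lanosterol synthase, which closes the sterol rings, was the lowest, at 19.6 ± 1.92 CPM per kilobase. The 7 enzymes of 1 linear pathway thus spanned more than an order of magnitude in reads per coding length. The divisor was the longest annotated coding length, applied to every read of the gene, and where reads lay within the gene was not tested.

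Neighbours in this order were compared within libraries by an exact two-sided sign-flip permutation test of the log2 ratio of their levels per kilobase, with p adjusted over the 6 pairs. Hmgcs1 exceeded Fdft1 by 1.56 (SD 0.35), Fdft1 exceeded Cyp51 by 0.48 (SD 0.18), Sqle exceeded Fdps by 0.96 (SD 0.15) and Pmvk exceeded Lss by 1.68 (SD 0.41) on the log2 scale. Each of these 4 differences was seen in 8 of 8 libraries, with an exact permutation p of 0.00781, the smallest that 256 sign flips can give (adjusted p = 0.0117). Cyp51 and Sqle did not differ beyond their spread: the log2 ratio was 0.065 (SD 0.16), with Cyp51 higher in 5 of 8 libraries (exact permutation, adjusted p = 0.281). Fdps lay above Pmvk by 0.31 (SD 0.29) in 7 of 8 libraries (exact permutation, adjusted p = 0.0281). That last call ended, at an adjusted p of 0.0563 by the same exact permutation test, when any one of female 1, female 4, male 1, male 2, male 3 and male 4 was left out, and with the longest annotated transcript as divisor Fdps lay below Pmvk, at -0.11 (exact permutation, adjusted p = 0.289). Without female 1, female 3 and male 1, the mean log2 ratios of these pairs from Hmgcs1 over Fdft1 to Pmvk over Lss kept their signs; 5 libraries allow no p below 0.0625.

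**Figure D1:**
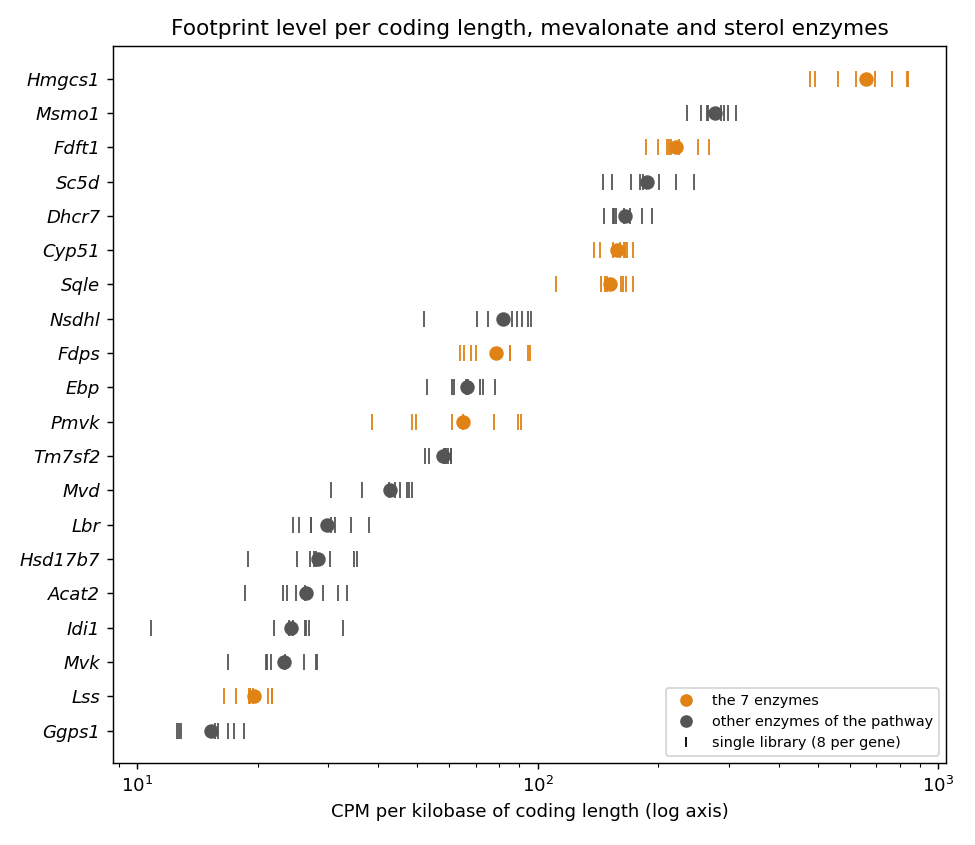
Footprint level of the 7 genes described here (orange) and of other enzymes of the pathway (grey) in CPM per kilobase of coding length (log axis); dots are means over 8 libraries and ticks single libraries. Hmgcs1 is at the top at 661 and Lss near the bottom at 19.6 CPM per kilobase, and the ticks of Cyp51 and Sqle overlap.

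The levels of the 15 other enzymes of the pathway interleaved with those of the 7. Per kilobase, Msmo1, a sterol demethylase, was at 277 CPM, between Hmgcs1 and Fdft1. Sc5d, a sterol desaturase, at 188 CPM and Dhcr7, a sterol reductase, at 165 CPM per kilobase lay between Fdft1 and Cyp51. Of the 22 enzymes, Hmgcs1 ranked 1 and Lss 21, above Ggps1, geranylgeranyl pyrophosphate synthase, at 15.3 CPM per kilobase. Among 14082 coding genes that averaged 1 CPM or more, Hmgcs1 lay in the top 0.824%, Fdft1 in the top 3.52%, Cyp51 in the top 5.52%, Sqle in the top 5.77% and Lss in the top 38.3% by reads per coding length. No test was made of these ranks.

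In reads without length correction the 7 genes together held 0.213% ± 0.0209 of all assigned reads in female libraries, against 0.181% ± 0.0298 in male libraries (SD, n = 4). Hmgcs1 alone made up 54.7% ± 2.47 of these reads in female and 49.0% ± 3.40 in male libraries. Behind the values stood between 82 reads, for Pmvk in male 1, and 15164 reads, for Hmgcs1 in male 3, so no member was near the floor of 3 reads.

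Comparison of the labelled sexes asked which members differed under saline. All 7 averaged 1 CPM or more and entered the fit. None of the 7 passed with limma at an adjusted p under 0.05, nor did any of the 15720 genes tested (0% called). Without adjustment, Pmvk and Hmgcs1 were higher in female at p under 0.05, beside 11.9% of all genes (1877), and 0 members were lower, beside 1.41% (222). The median log2 fold change (female minus male, on log2(CPM + 1)) of the 7 was 0.21, beside 0.15 over all genes tested. The log2 fold change was above 0 in 5 of 7, against 71.7% of all genes. Without female 1, female 3 and male 1 the median was 0.048 for the 7 and 0.012 over all genes tested. The members are given one by one in the order of the pathway.

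Hmgcs1 (chromosome 13, 119690379 to 119708260, plus strand, GENCODE M21 on GRCm38, as for all genes below) was at 1299, 974, 1311 and 1084 CPM in female 1 to 4 and at 745, 878, 1193 and 767 CPM in male 1 to 4. The groups overlapped through male 3, which lay above female 2 and female 4. The log2 fold change was 0.40 (SE 0.17, limma adjusted p = 0.372), with means of 1167 ± 165 CPM in female libraries, against 896 ± 206 CPM in male libraries (SD, n = 4). Without female 1, female 3 and male 1 it was 0.14 (SE 0.22).

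Pmvk (chromosome 3, 89454541 to 89469013, plus strand), which adds the second phosphate to mevalonate, was at 51.3, 37.5, 52.5 and 44.7 CPM in female 1 to 4 and at 22.2, 28.6, 35.2 and 28.0 CPM in male 1 to 4. Every library labelled female lay above every library labelled male, as in 3.43% of all genes. It was the 1 of the 7 with groups apart, beside 4.55% of all genes with groups apart in either direction. The means were 46.5 ± 6.91 CPM in female libraries, against 28.5 ± 5.31 CPM in male libraries (SD, n = 4), a log2 fold change of 0.69 (SE 0.16, limma adjusted p = 0.372). Female 1, female 3 and male 1 were the 2 highest of the female and the lowest of the male group. Without them the log2 fold change was 0.42 (SE 0.18, limma adjusted p = 0.9995), and female 2 and female 4 still lay above male 2, male 3 and male 4, as in 6.12% of all genes. With the replicate number as a block the adjusted p was 0.114 (limma), and 27 of 15720 genes passed (0.172% called), none of the 7 among them.

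Fdps (chromosome 3, 89093588 to 89101959, minus strand) was at 102, 69.5, 90.4 and 100.2 CPM in female 1 to 4 and at 67.9, 74.4, 90.1 and 72.1 CPM in male 1 to 4. The groups overlapped, with female 2 below 3 of the 4 male libraries. Its log2 fold change was 0.24 (SE 0.15, limma adjusted p = 0.456), with means of 90.4 ± 14.8 CPM in female libraries, against 76.1 ± 9.71 CPM in male libraries (SD, n = 4). With 1 library left out at a time it lay between 0.18 (without female 1) and 0.36 (without female 2). Without female 1, female 3 and male 1 it was 0.088 (SE 0.20).

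Fdps was also the only member whose values did not come to whole reads: they lay up to 0.4815 of a read from a whole number, against at most 0.0082 for the other 6. Of the 28-base words in its protein-coding transcripts, 67.8% also occur in transcripts of other genes, 59.7% in those of Gm43738 and 40.5% in those of Gm3571, a processed pseudogene. Gm43738 (chromosome 3, 89081939 to 89101099, minus strand) overlaps both Fdps and its neighbour Rusc1 on the same strand. It was at 0.245, 0.0195, 3.38 and 8.84 CPM in female 1 to 4 and at 8.99, 14.0, 2.15 and 21.2 CPM in male 1 to 4. It varied far more between libraries than Fdps did, and 3 of the 4 male libraries were above every female library. The sum of both was 93.5 ± 17.2 CPM in female libraries, against 87.7 ± 7.49 CPM in male libraries (SD, n = 4), and its log2 fold change was 0.076 (SE 0.15, limma adjusted p = 0.826), against 0.24 for Fdps alone. The sum counts every read of Gm43738 for Fdps. How many of them lay on Rusc1, which was at a mean of 223 CPM, was not tested. The summing was chosen after the values were seen, and with it the median log2 fold change of the 7 was 0.076. The difference of Fdps is therefore uncertain.

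**Figure D2:**
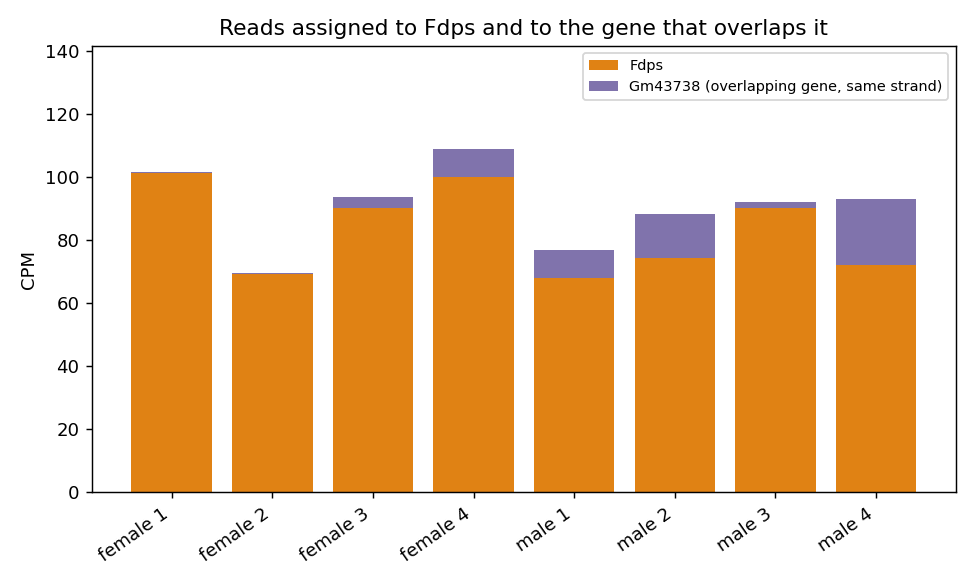
CPM assigned to Fdps (orange) and to Gm43738 (purple), a gene on the same strand that overlaps it, stacked for each library. Gm43738 holds between 0.0280% of the sum in female 2 and 22.7% in male 4, and the total bars differ less between the labelled sexes than the orange parts do.

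Fdft1 (chromosome 14, 63145150 to 63179578, minus strand), the first enzyme of the sterol branch, was at 265, 280.5, 263 and 249 CPM in female 1 to 4 and at 269, 334, 313 and 232 CPM in male 1 to 4. Male 2 and male 3 were the highest and male 4 the lowest of all, so the female libraries lay inside the male range. The log2 fold change was -0.11 (SE 0.13, limma adjusted p = 0.707), and lay at -0.029 without male 2, -0.060 without male 3 and -0.20 without male 4. The end of the gene overlaps that of Ctsb, the cathepsin B gene on the opposite strand, at a mean of 1738 CPM; 20.3% of the 28-base words of Fdft1 transcripts occur in those of Ctsb and 17.6% in the pseudogene Gm6781. The counting is not stated to use strand, so reads in the overlap with Ctsb may be counted for either gene.

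Sqle (chromosome 15, 59315077 to 59331192, plus strand), which oxidises squalene and is a second control point of the pathway, was at 285, 253, 297 and 280.4 CPM in female 1 to 4 and at 191, 255, 278 and 247 CPM in male 1 to 4. Male 1 was the lowest by a wide margin and the other 7 libraries lay close together. Its log2 fold change was 0.21 (SE 0.13, limma adjusted p = 0.458). It was 0.10 (SE 0.11) without male 1 alone and 0.036 (SE 0.15) without female 1, female 3 and male 1.

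Lss (chromosome 10, 76531588 to 76557138, plus strand) was at 42.2, 41.9, 42.7 and 47.9 CPM in female 1 to 4 and at 38.9, 46.7, 47.9 and 36.3 CPM in male 1 to 4. The male libraries spread over the whole range of the female ones. The log2 fold change was 0.048 (SE 0.13, limma adjusted p = 0.876) and turned to -0.11 under median-ratio scaling.

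Cyp51 (chromosome 5, 4081145 to 4104746, minus strand) was at 252, 216, 242 and 233 CPM in female 1 to 4 and at 208, 261, 249.7 and 247 CPM in male 1 to 4. It was the steadiest of the 7, with the highest library 1.25-fold above the lowest. Its log2 fold change was -0.033 (SE 0.11, limma adjusted p = 0.908).

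**Figure D3:**
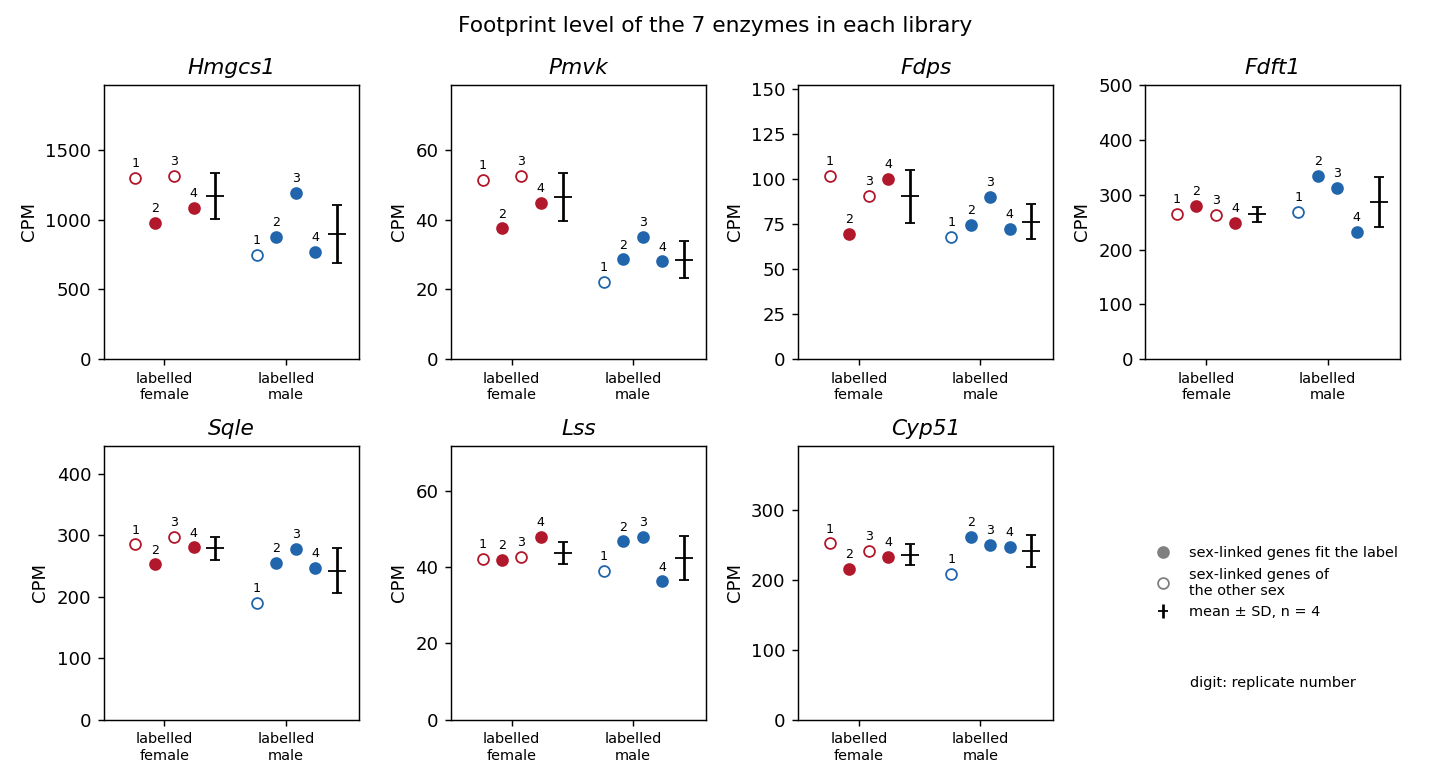
CPM of each of the 7 genes in the libraries labelled female (red, left) and male (blue, right), each panel on its own axis from 0; digits are replicate numbers, open points the 3 libraries with sex-linked genes of the other sex, and bars the mean ± SD of 4 libraries. Pmvk alone has all female points above all male points, from 37.5 CPM up against 35.2 CPM down.

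The scale matters for these directions, since the median of all genes was itself at 0.15. With median-ratio scaling, which puts that median at 0.0042, the log2 fold changes were 0.54 for Pmvk, 0.24 for Hmgcs1, 0.079 for Fdps, 0.052 for Sqle, -0.11 for Lss, -0.19 for Cyp51 and -0.27 for Fdft1. The order of the 7 was the same as on the deposited scale. This was nearly fixed in advance, since scaling shifts all genes of a library almost alike. None of the 7 passed after adjustment with limma (adjusted p between 0.357 and 0.804). Without adjustment, Pmvk was higher and Fdft1 and Cyp51 were lower in female at p under 0.05 on this scale, beside 992 genes higher and 1027 lower of 15715 tested. With protein-coding genes alone, rescaled, Pmvk was at 0.60 (SE 0.13, limma adjusted p = 0.335).

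Ratios of reads within a library do not depend on the scaling, and were formed for all 21 pairs of the 7 genes. In 7 pairs the ratios of the labelled sexes did not overlap, and 6 of these were the 6 pairs with Pmvk. Over all pairs of coding genes averaging 10 CPM or more and read in every library, ratios did not overlap in 7.18%, and over the pairs of Pmvk with 9219 other such genes in 60.4%, so most genes stood apart from Pmvk as the other 6 did. Hmgcs1 had 25.3, 26.0, 25.0 and 24.3 times the reads of Pmvk in female 1 to 4 and 33.6, 30.7, 33.9 and 27.4 times in male 1 to 4. Relative to Sqle, reads of Pmvk were at 0.180, 0.148, 0.177 and 0.159 in female 1 to 4 and at 0.116, 0.112, 0.127 and 0.113 in male 1 to 4. Without female 1, female 3 and male 1 the ratios did not overlap in 8 of the 21 pairs, the 6 with Pmvk and Lss over Cyp51 among them, beside 17.5% of all pairs of coding genes and 67.7% of the pairs of Pmvk with another gene. Over all 8 libraries, only Sqle over Cyp51 was apart among the 15 pairs without Pmvk. It was at 1.13, 1.17, 1.23 and 1.20 in female 1 to 4 and at 0.916, 0.978, 1.11 and 0.998 in male 1 to 4. These are descriptions: the pairs share Pmvk, which was known from earlier results to lean to female, so no test was made.

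**Figure D4:**
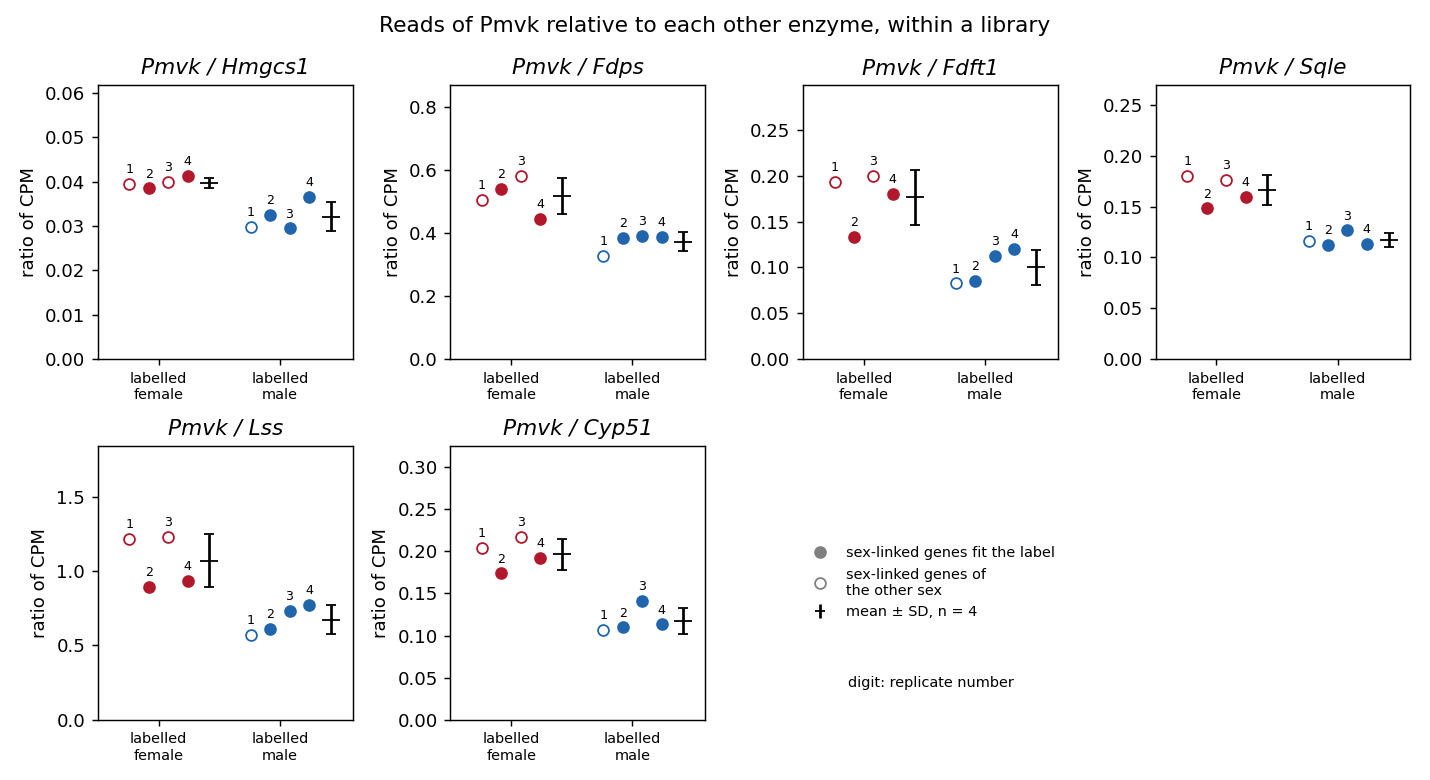
Reads of Pmvk divided by those of each of the other 6 genes in the same library, for libraries labelled female (red, left) and male (blue, right), with digits, open points and bars as in the plot of CPM by library. In each of the 6 panels the 4 female points lie above the 4 male points.

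The 7 genes varied between libraries by very different amounts. Over all 8 libraries the coefficient of variation was 29.8% for Pmvk, 21.9% for Hmgcs1, 16.7% for Fdps, 12.8% for Sqle, 12.1% for Fdft1, 9.82% for Lss and 7.69% for Cyp51. Read counting alone would give 6.20% for Pmvk, 5.78% for Lss and 1.18% for Hmgcs1, so counting error was largest relative to the spread in Lss and smallest in Hmgcs1. The median of 9238 coding genes averaging 10 CPM or more was 17.1%; Pmvk varied more than 93.8% of them and Cyp51 more than 3.10%.

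Across the 8 libraries, Hmgcs1, Pmvk, Fdps and Sqle went up and down together, with Pearson r of log2(CPM + 1) between 0.776 (Fdps with Sqle) and 0.919 (Hmgcs1 with Pmvk). Fdft1 did not follow them: its r was 0.103 with Hmgcs1, 0.025 with Sqle, -0.117 with Fdps and -0.179 with Pmvk, and its highest was 0.614 with Lss. These values are descriptions over libraries that share scaling, depth and cell makeup, and Hmgcs1, Pmvk, Fdps and Sqle were grouped by them. Each of these 4 had a closer match among 9231 other coding genes. The closest were Ik with Hmgcs1 at 0.998, Hnrnpc with Pmvk at 0.997, Sptlc2 with Fdps at 0.979 and Wdr37 with Sqle at 0.996. The mean profile of the 7 was lowest in male 1 and male 4 and highest in male 3 and female 1, and the median r of 9231 other coding genes with it was 0.692. The 10 genes most like it, by r between 0.978 and 0.988 over 8 libraries, were Rnf31, Znhit1, Mrps5, Actl6a, Nol7, Epas1, Smarcb1, Dus1l, Fam160b1 and Trpc4ap. Of the other enzymes of the pathway, Mvd, mevalonate pyrophosphate decarboxylase, was the closest, at r = 0.952 and rank 98, and Tm7sf2, a sterol reductase, the farthest, at r = -0.459.

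Male 1 and male 4, the lowest in this profile, also differed in makeup. Protein-coding genes held 78.3% of reads in male 1 and 82.4% in male 4, the 2 lowest shares, and mitochondrial ribosomal RNA 15.6% and 11.4%, the 2 highest. All 10 neuron markers were measured and summed to between 19240 and 23455 CPM in female libraries, against between 13861 and 22252 CPM in male libraries, lowest in male 1. Of the 10, 9 had a log2 fold change above the median of all genes, and the other, Nefh, was at -0.035. At an unadjusted p under 0.05 with limma, 4 lay higher in female, beside 11.9% of all genes. The median log2 fold change of the 10 was 0.32, beside 0.15 over all genes. The 10 markers of myelinating Schwann cells summed to between 15122 and 17657 CPM in female libraries, against between 13617 and 20070.1 CPM in male libraries, lowest in male 4 and highest in male 2. The 8 satellite glia markers summed to between 10513 and 12298 CPM in female libraries, against between 11699 and 14358 CPM in male libraries, and 7 fibroblast markers to between 11525 and 12823 and between 12562 and 17320.0 CPM. The fibroblast markers had a median log2 fold change of -0.21, with 0 of 7 above 0. The 6 adipocyte markers, of fat that can adhere to ganglia, summed to between 165 and 296 CPM in female libraries, against between 122 and 289.6 CPM in male libraries. No marker list was at 0 in any library. The part of cell makeup in the differences of the 7 genes was not tested.

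The other enzymes of the pathway gave no call either. Of 15 tested with limma, 0 passed after adjustment over all genes. Acat2 and Nsdhl were higher in female at p under 0.05 without adjustment, 2 of 15 beside 11.9% of all genes, and the median log2 fold change was 0.13, beside 0.15 over all genes. Among the most abundant were Msmo1 at 244 ± 17.1 CPM in female libraries, against 243 ± 29.3 CPM in male libraries, and Dhcr7, the last reductase of one route to cholesterol, at 220.02 ± 9.97 and 249.7 ± 22.4 CPM (SD, n = 4). Acat2, the cytosolic thiolase that precedes Hmgcs1, was the 1 of 15 with all female libraries above all male ones, beside 3.43% of all genes. It was at 35.9 ± 3.76 CPM in female libraries, against 26.9 ± 3.26 CPM in male libraries (log2 fold change 0.41, SE 0.13, limma adjusted p = 0.372). Acat2 was chosen after its values were seen.

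Of all 22 enzymes, 17 had a log2 fold change above 0, beside 71.7% of all genes, and 11 lay above the median of all genes. The median of the 22 was 0.149, beside 0.146 over all genes. Read along the pathway, the fold changes were not even. From acetyl-CoA to farnesyl pyrophosphate all 8 enzymes had a log2 fold change above 0, with a median of 0.35. Of these 8, 7 were above the median of all genes, or 6 of the 8 with Gm43738 added to Fdps. From squalene synthesis to lanosterol the median of 3 enzymes was 0.048, and from lanosterol to cholesterol the median of 10 was 0.020, with 6 above 0. The stages are those of the textbook pathway, but the grouping was made after values were seen, and no test of a difference between stages was made.

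**Figure D5:**
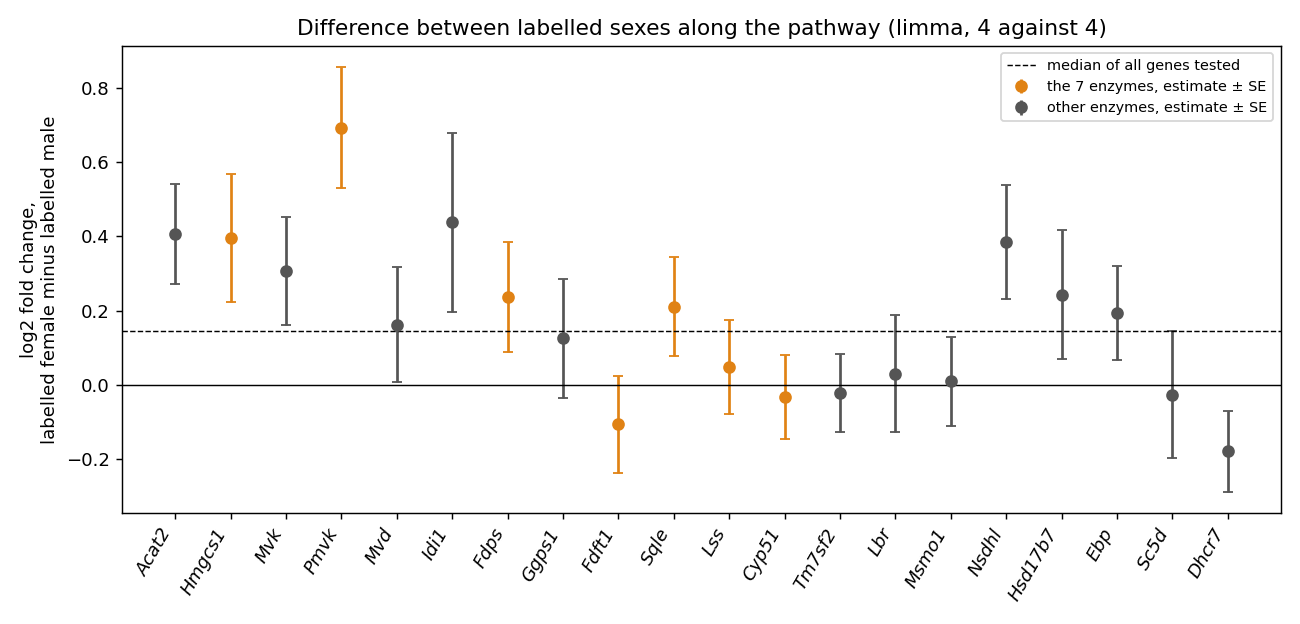
Log2 fold change of enzymes of the pathway, labelled female minus labelled male, with SE from limma, in the order of the pathway; the 7 genes described here are orange and the dashed line is the median of all genes tested, at 0.15. Pmvk stands highest at 0.69, and most enzymes from Fdft1 onwards lie at or below the dashed line.

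Regulators of the pathway gave no call. Of 7 genes of sterol sensing and SREBP processing, 0 passed with limma and 0 lay at an unadjusted p under 0.05; the median log2 fold change was 0.066. Srebf2, the SREBP that acts mainly on sterol genes, was at 203 ± 27.3 CPM in female libraries, against 193 ± 24.6 CPM in male libraries, Srebf1, which acts mainly on fatty acid genes, at 142 ± 8.05 and 156 ± 7.01 CPM, Insig1, which retains the SREBP complex in the endoplasmic reticulum, at 62.7 ± 3.86 and 56.6 ± 11.8 CPM, and Scap, the escort of SREBP, at 41.3 ± 5.60 and 44.2 ± 6.62 CPM (SD, n = 4).

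Genes of cholesterol uptake, transport and storage, of efflux, and of enzymes that use isoprenoids gave no calls as well. Of 9 uptake and transport genes 0 passed with limma, and the median log2 fold change was 0.053. Stard4, a cytosolic sterol carrier, was the 1 of the 9 at an unadjusted p under 0.05, beside 11.9% of all genes, at 22.9 ± 5.78 CPM in female libraries, against 15.4 ± 2.58 CPM in male libraries (log2 fold change 0.52, SE 0.20, limma adjusted p = 0.372). Lrp1, a lipoprotein receptor, was at 1154 ± 96.4 CPM in female libraries, against 1385 ± 262 CPM in male libraries, Npc1, which exports cholesterol from lysosomes, at 163 ± 4.27 and 191 ± 25.4 CPM, and its partner Npc2 at 113 ± 4.47 and 105 ± 24.8 CPM (SD, n = 4). For Npc1 every female library lay below every male one, as in 1.13% of all genes. Of 9 genes of efflux and oxysterol response 0 passed, with a median of 0.017; the highest was Abca1, a cholesterol exporter, at 269 ± 28.9 and 287 ± 37.3 CPM, before Abcg1, Nr1h2 and Cyp7b1. Of 12 isoprenoid-using enzymes 0 passed and 12 had a log2 fold change above 0, beside 71.7% of all genes, with a median of 0.17, led in level by the farnesyltransferase subunits Fntb and Fnta, then Dhdds and Rabggta.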

How the data were processed

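Ribosome footprint libraries of mouse DRG were analysed from 2 deposited tables, 1 per labelled sex, of 48431 gene rows. As tools and builds, the submitters' processing notes list TopHat2 2.1.1, Bowtie2 2.2.9, Cufflinks 2.2.1 and FastQC 0.11.5, and GRCm38.p4 and mm10, without roles; which of them counted reads is not stated. The deposited tables bear the name TPM, but their values behave as CPM: columns total 1000000 each, and from 95.7% to 96.5% of values above 0 are whole multiples, within 0.01, of 1 step that is equal for all genes of a library. The step gave the depth of each library. The smallest values were fractions of a step, so no count model was fitted, although tests on counts had been planned as alternatives. Floors of 3 reads cover counting error only.

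Rows were summed by symbol (48315 symbols), and 99.2% of gene identifiers were found in GENCODE M21. The labelled sexes were compared by limma 3.58.1 (R 4.3.3). It was fitted to log2(CPM + 1) of genes that averaged 1 CPM or more, with a mean-variance trend, and p was adjusted by Benjamini-Hochberg with a threshold of 0.05. A fold change on this scale understates the change of low genes. The fit was tested on simulated data with known changes. For numbers 1 to 4, the correlation of deviations from the group mean between same-numbered libraries was 0.287, 0.492, 0.531 and 0.592, all over 0.1. On this ground the number was used as a block in an alternative, although female 1 correlated best with male 3. The labels do not say what the number stands for. Ratios, ranks and exact tests were computed in Python 3.11.15 with scipy 1.17.1. The members and lists were chosen with earlier results of these data known. All 7 members are named, with the 4 most abundant genes of each of 6 pathway lists, less a few genes that are not reported here, and the 10 genes most like the members; 9 marker lists are given by their sums.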

Additional observations from a re-analysis of the deposited data

Results flagged for a closer look

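Lss in female 4, at 47.9 CPM, lay far above the other 3 libraries labelled female, which were between 41.9 and 42.7 CPM; the gap to the nearest took 0.868 of the range of the group. It was the 1 such case among 14 groups of 4 libraries (7 genes in each labelled sex), and chance gives about 1 in 20. The value stays inside the range of the libraries labelled male, which reached 47.9 CPM in male 3.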

How the results depend on the processing

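Pmvk and Hmgcs1 stayed higher in the libraries labelled female, and none of the 7 passed with limma, under every alternative run. These were pseudocount 0.5, no filter or a filter at 10 CPM, median-ratio scaling, protein-coding genes alone, quantile normalization and the replicate block. Others left out each library in turn or the 3 libraries with sex-linked genes of the other sex, or averaged female 1 and female 3. The filters and the replicate block cannot change the fold change of a gene, only its SE and p. No alternative grouped the libraries by their sex-linked genes. Leaving out 1 library at a time put the median log2 fold change of the 7 between 0.10 (without male 1) and 0.28 (without male 3) and the numbers of genes, members and other pathway genes called at 0 and 0. Leaving out female 1, female 3 and male 1 together put the median of the 7 at 0.048, beside 0.012 over all genes tested. With the replicate block 27 genes passed, with 0 members, and it changed no other call; with the block on protein-coding genes alone, rescaled, 0 genes passed with limma (smallest adjusted p = 0.119, with 1886 genes higher and 879 lower at an unadjusted p under 0.05), and 5 genes passed without the 3 libraries, 0 of them members. With each library left out in turn, Pmvk lay between 0.58 and 0.80, Hmgcs1 between 0.32 and 0.54, Fdps between 0.18 and 0.36, Sqle between 0.10 and 0.28, Fdft1 between -0.20 and -0.029, Lss between -0.023 and 0.11 and Cyp51 between -0.10 and 0.0085. Lss had the other sign at -0.11 with median-ratio scaling, -0.12 with quantile normalization, -0.049 with protein-coding genes alone, with and without the block, and -0.023 without male 4. Cyp51 had the other sign at 0.0085 without female 2 and 0.0059 without male 2. Fdps over Pmvk per kilobase was at -0.11 with the longest transcript as divisor. The cause of these sign changes was not tested. With the reads of coding genes as denominator the share of the 7 was 0.225%, against 0.197%. Tests on counts (edgeR, DESeq2) and TMM factors were not run, because the values did not come to whole reads for all genes. Quantile normalization, the block on coding genes and the sum of Fdps with Gm43738 were chosen after seeing the data.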

Other observations

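Fatty acid synthesis, which draws on the same cytosolic acetyl-CoA, was read from a list of 10 genes. Of these 0 passed with limma over all genes, 5 had a log2 fold change above 0, and the median was 0.059. Scd2, a stearoyl-CoA desaturase, was at 2019 ± 233 CPM in female libraries, against 2049 ± 471 CPM in male libraries, Fasn, fatty acid synthase, at 1811 ± 352 and 1623 ± 233 CPM, Scd1 at 799 ± 95.5 and 832 ± 107 CPM, and Acly, which makes cytosolic acetyl-CoA from citrate, at 859 ± 130 and 688 ± 61.5 CPM (SD, n = 4). Me1, the cytosolic malic enzyme that supplies NADPH, was the 1 of the 10 at an unadjusted p under 0.05, beside 11.9% of all genes (log2 fold change 0.39, SE 0.15, limma adjusted p = 0.372); it was named after its values were seen. Summed, the 10 genes were at 6509 ± 217 CPM in female libraries, against 6217 ± 551 CPM in male libraries.

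The remaining marker lists summed to between 307 and 361 CPM in female libraries, against between 326 and 410.01 CPM in male libraries for 6 endothelial markers, between 403 and 543 and between 458 and 584 CPM for 6 macrophage markers, between 2472 and 7063 and between 2869 and 5597 CPM for 6 skeletal muscle markers, and between 194 and 258 and between 199.8 and 507 CPM for 7 oligodendrocyte and astrocyte markers, which were highest in male 2. The list of skeletal muscle was highest in female 1 and female 3. No explanation of these levels was tested.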
